A study of Mus musculus with 3 samples.

Results

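The results below describe the regions bound by Yap1 in mouse heart that the authors listed to a microRNA (miRNA) gene. A region was taken when its list of nearby genes held a symbol starting with Mir and a digit, or with Mirlet7. This took 276 of the 22020 regions in the deposited table, and these regions listed 231 miRNA symbols in 358 pairs of symbol and region. Yap1 was mapped by chromatin immunoprecipitation and sequencing (ChIP-seq) with an anti-Yap1 antibody in whole hearts of wild-type male C57BL/6J mice, 7 days after surgery. The first operation was transverse aortic constriction (TAC), a narrowing of the aorta that puts the left ventricle under pressure load, and the other was a sham operation. The study's design gives 3 mice for each operation, and there was 1 anti-Yap1 library for TAC and 1 for sham, with an input made from a pool of both operations that was not analysed here. The sources used here do not say whether a library pooled its mice. With 1 library per operation no difference below has a replicate check, no p-value is given, and all intervals cover the spread over regions only.

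MiRNAs are short RNAs cut from hairpins, either from transcripts of their own or from introns of host genes. A mature miRNA pairs with messenger RNAs mainly through its seed, near its 5′ end, and lowers their translation or stability. In heart muscle the best known are miR-1 and miR-133, the miRNAs in the introns of the myosin heavy chain genes (miR-208a, miR-208b and miR-499), and a group that changes in hypertrophy and fibrosis, among them miR-21, miR-199a, miR-212/132 and miR-29. Yap1 is the co-activator restrained by the Hippo kinases, and it binds DNA mainly through TEAD factors.

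The mature sequences of the miRNAs that the results turn on are shown first, so that members of a seed family can be recognised by their capitals. They are RefSeq sequences on GRCm38.p6, written 5′ to 3′, with the seed (bases 2 to 8) in capitals. In all, 198 of the 231 symbols had a mature sequence in that table. The miRNAs of the myosin genes are encoded in Myh6, Myh7 and Myh7b. The first pair shares a seed from which that of miR-499 differs only at its last base.
miR-208a-3p: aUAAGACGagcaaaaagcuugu
miR-208b-3p: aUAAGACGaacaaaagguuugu
miR-499-5p: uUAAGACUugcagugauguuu

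The miR-26 family is encoded in the introns of the phosphatase genes Ctdspl, Ctdsp2 and Ctdsp1, and miR-130a and miR-301a share another seed.
miR-26a-5p: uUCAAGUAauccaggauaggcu
miR-26b-5p: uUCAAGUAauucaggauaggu
miR-130a-3p: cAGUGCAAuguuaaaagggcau
miR-301a-3p: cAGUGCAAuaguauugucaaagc

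The let-7 family, which is known for its rise as cells leave the embryonic state, had the most members.
let-7c-5p: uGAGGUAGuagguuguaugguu
let-7d-5p: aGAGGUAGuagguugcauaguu
let-7e-5p: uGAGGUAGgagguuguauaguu
let-7i-5p: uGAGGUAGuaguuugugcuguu

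The miR-15 family is known for restraining the cell cycle of cardiomyocytes after birth.
miR-15b-5p: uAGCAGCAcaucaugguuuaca
miR-16-5p: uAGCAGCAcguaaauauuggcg
miR-195a-5p: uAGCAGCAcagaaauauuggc
miR-497a-5p: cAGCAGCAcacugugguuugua
miR-322-5p: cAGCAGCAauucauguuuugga

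The remaining sequences have various seeds and belong to miRNAs known from hypertrophy, fibrosis or endothelium.
miR-23a-3p: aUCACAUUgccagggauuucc
miR-27a-3p: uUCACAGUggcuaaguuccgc
miR-24-3p: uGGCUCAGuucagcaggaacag
miR-22-3p: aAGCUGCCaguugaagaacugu
miR-21a-5p: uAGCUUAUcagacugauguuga
miR-199a-3p: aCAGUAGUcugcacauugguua
miR-214-3p: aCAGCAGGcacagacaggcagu
miR-212-3p: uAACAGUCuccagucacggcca
miR-132-3p: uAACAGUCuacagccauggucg
miR-29b-3p: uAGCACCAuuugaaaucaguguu
miR-29c-3p: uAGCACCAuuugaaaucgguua
miR-126a-3p: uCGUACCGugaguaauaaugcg

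Across the miRNA regions as a whole, Yap1 signal was lower in TAC than in sham hearts, and so it was across the whole table. The median average signal over a miRNA region, in the units of the deposited table, was 8.66 in TAC and 11.97 in sham, against 7.46 in TAC and 10.6 in sham over all regions. The ratio used below is log2((TAC + 1)/(sham + 1)) of the average signal, which understates the difference of weak regions. Its median was -0.51 over the 276 miRNA regions (95% interval -0.55 to -0.47) and -0.54 over all regions, and it was below 0 in 265 of the 276. A ratio at least 1.5-fold lower in TAC was found in 106 miRNA regions (38.4%, 95% Wilson interval 32.9 to 44.3%), where 43.0% of all regions had one. None of the 276 was at least 1.5-fold higher, where 0.486% of all regions were. The sources used here do not give the depth of the libraries or their scaling, so a shift shared by all regions cannot be told apart from a difference in depth or scaling. Set against the median ratio of the whole table, 3 miRNA regions were at least 1.5-fold lower (1.09%, background 2.31%) and 8 were at least 1.5-fold higher (2.90%, background 4.42%).

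The authors also marked in which library each region was called. Of the 276 miRNA regions, 161 were called in TAC (58.3%, 95% Wilson interval 52.4 to 64.0%), where 48.7% of all regions were, and 265 were called in sham (96.0%, background 96.6%). Both libraries had a call at 150 (54.3%, background 45.3%), TAC alone at 11 (3.99%, background 3.40%) and sham alone at 115 (41.7%, background 51.3%). The higher share of TAC calls than in the whole table went with stronger and longer regions. The median length was 2617.5 bp for miRNA regions and 2114.5 bp for all regions, and 57.2% of miRNA regions had a CpG island counted, against 36.0% of all. It also went with crowded gene neighbourhoods, since 267 of the 276 listed 2 or more genes. Among the 5912 regions that listed several genes and no miRNA, 59.7% were called in TAC, the median signal was 8.62 in TAC and 12.03 in sham, the median ratio was -0.49, and 35.4% were at least 1.5-fold lower. Both of these shares and this ratio lie inside the intervals given above for the miRNA regions.

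**Figure D1:**
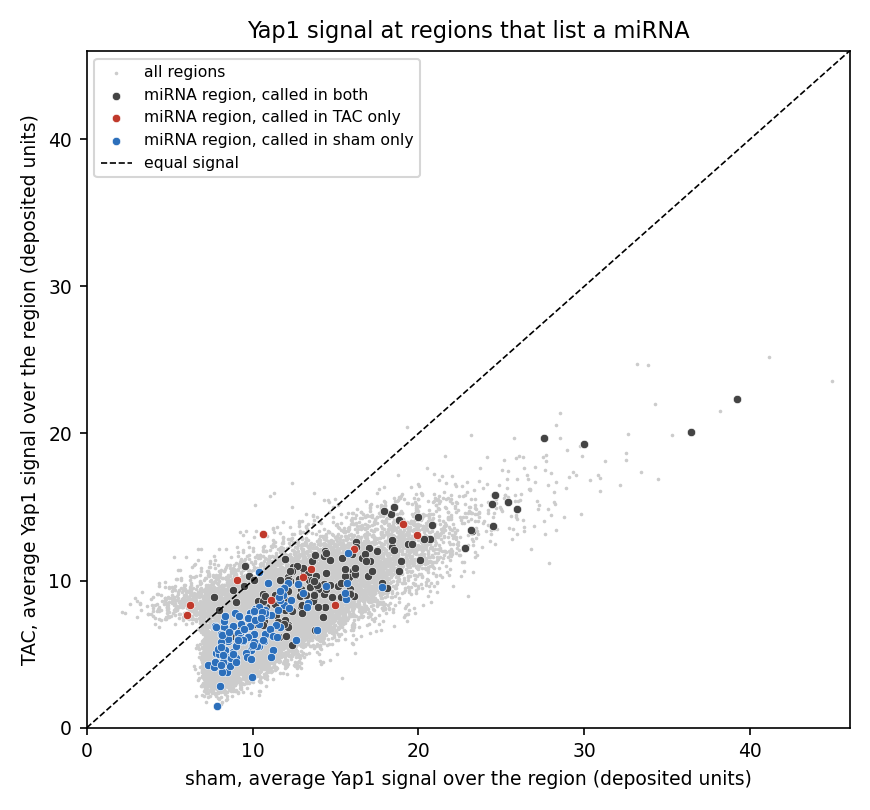
Average Yap1 signal of each region in TAC (vertical axis) and sham (horizontal axis), in deposited units, with all regions in grey and miRNA regions coloured by where they were called. Of the 276 miRNA regions 265 lie below the dashed line of equal signal, and their medians were 8.66 in TAC and 11.97 in sham.

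A listing is not the same as binding at the hairpin, and the position of the regions shows how wide the lists reach. The authors listed a miRNA when its start lay within about 10 kb of the edge of a region; the largest gap found was 10047.5 bp. The median distance from a region's midpoint to the miRNA start was 4952.5 bp in either direction, with 59 of the 358 pairs within 1000 bp, 180 within 5000 bp and 46 beyond 10000 bp. The authors classed 195 pairs as upstream, 155 as downstream and 8 as in the gene. The hairpin itself lay inside the region in 80 of the 339 pairs with RefSeq coordinates, spread over 68 regions. These 68 regions had a median signal of 8.98 in TAC and 12.8 in sham and a median ratio of -0.53. Of them 49 were called in TAC (72.1%, background 48.7%). They were long, with a median of 3912 bp against 2617.5 bp for all miRNA regions. Of the miRNA regions of 4000 bp or more, 86.3% were called in TAC, and of the shorter ones 48.3%. Whether length accounts for the calls at hairpins was not tested. Only 18 of the 276 regions listed miRNAs alone. The other 258 listed another gene too. Of the 143 miRNAs within the span of a protein-coding gene on either strand, 140 had that gene listed beside them. That gene is not always the host, and the signal cannot be assigned to the miRNA rather than to it. The list also depends on the annotation the authors used: of 1180 miRNA genes in RefSeq, 428 lay within 10000 bp of a region and 220 of those were listed, so a miRNA described below as not listed may still have a region nearby.

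**Figure D2:**
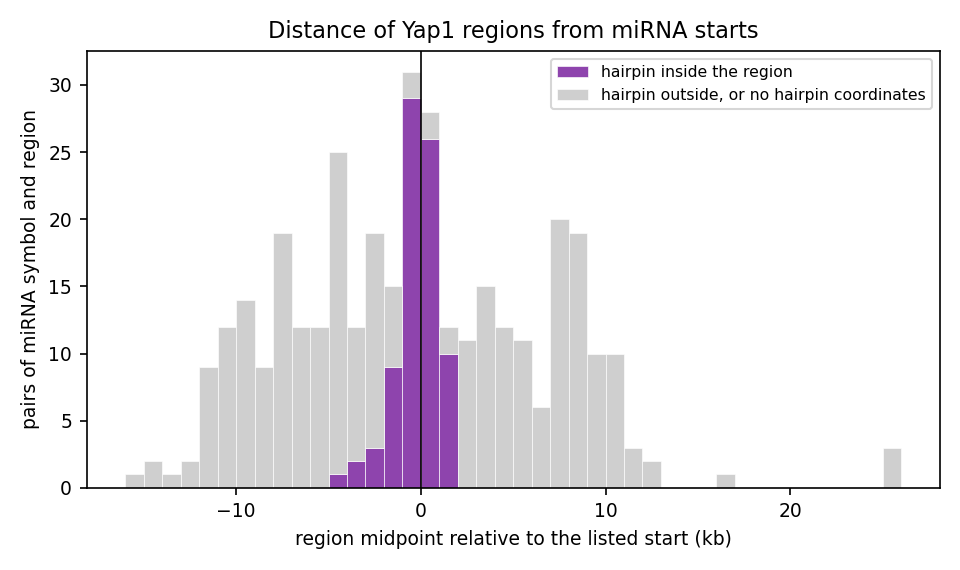
Distance from the listed start of each miRNA to the midpoint of its Yap1 region, in kb (negative: upstream), for the 358 pairs of miRNA symbol and region. Purple pairs, 80 in all, have the hairpin inside the region, and the others spread over the whole listing window on both sides.

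The 10 symbols whose start lay nearest to the midpoint of a region were Mir152, Mir5132, Mir5136, Mir484, Mir208a, Mir1956, Mir1192, Mir22hg, Mir1904 and Mir199a-2. Mir152, in an intron of Copz2, lay 3 bp from the midpoint of its region, with a signal of 6.82 in TAC and 11.7 in sham (ratio -0.69). Mir484, between Marf1 and Nde1, lay 40 bp away, with 8.19 in TAC and 14.4 in sham (-0.74). Mir208a lay 44 bp away and is described with its myosin locus below, as are Mir22hg and Mir199a-2 with their own. The region over Mir1904, within Pde4d, had 5.97 in TAC and 12.6 in sham, one of the lowest ratios of all miRNA regions at or above the median signal (-0.97). Mir5132 within Irak1 had 5.51 in TAC and 8.10 in sham, and Mir5136 had 8.91 in TAC and 11.6 in sham. Mir1956 within Eif4e had 11.4 in TAC and 14.7 in sham, and Mir1192 had 6.98 in TAC and 11.4 in sham. All 10 but Mir199a-2 had less signal in TAC than in sham.

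The strongest miRNA regions all listed other genes as well. The highest average signal of all 276 was at Mir3064, an intronic miRNA of Ddx5, with 22.4 in TAC and 39.2 in sham (ratio -0.78), which ranked 5 in TAC and 3 in sham among all 22020 regions. Ddx5 encodes the RNA helicase p68, itself a part of the Microprocessor that cuts miRNA hairpins. Next was Mir301, in an intron of Ska2, with 20.1 in TAC and 36.4 in sham (-0.83), ranked 11 and 5 in TAC and sham. The region upstream of the Mir23a/Mir27a/Mir24-2/Mir3074-2 cluster had 19.7 in TAC and 27.6 in sham (-0.47). Mir1934, beside Eif4a1 and Senp3, had 19.3 in TAC and 30.0 in sham (-0.61), and Mir671, in Chpf2 and beside Smarcd3, had 14.9 in TAC and 25.9 in sham (-0.76). All of them were called in both libraries, and in none did the TAC signal reach that of sham. Of these regions the hairpin lay inside none, and the midpoints were 3573 bp (Mir301) to 10769 bp (Mir671) from the miRNA start.

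The highest points within a region were at the hosts of miR-22, miR-301a and miR-26a. The Ska2 region of Mir301 reached a maximum signal of 76 in TAC and 126 in sham. Mir22hg is the host transcript of miR-22, a miRNA needed for a full hypertrophic response in mouse. Its region, chr11:75457363-75465917 on mm10, held the miR-22 hairpin and reached a maximum of 77 in TAC and 126 in sham, with an average of 15.8 in TAC and 24.6 in sham (ratio -0.61). Its TAC maximum was the highest of all miRNA regions. A second, smaller region farther upstream had 10.6 in TAC and 10.4 in sham (0.02), so that the 2 regions of 1 gene stood on different sides of 0, although the second was called in sham only. The region over the start of Ctdsp2, host of Mir26a-2, had the highest sham maximum of all miRNA regions, with 74 in TAC and 165 in sham. Its average was 12.2 in TAC and 22.8 in sham (-0.85).

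Promoter sequences were read for these strong regions because the signal covers the annotated starts. Shown are 250 bases before to 50 after the start of Mir22hg and Ctdsp2, and of Dnm3os, the host transcript of Mir199a-2 and Mir214, whose region was called in TAC only. The sequences are from RefSeq (GRCm38.p6), on the strand of the gene, with each match to GGAATG or its reverse complement CATTCC, the core that TEAD factors recognise, in capitals.
Mir22hg, chr11:75461289-75461588, plus strand: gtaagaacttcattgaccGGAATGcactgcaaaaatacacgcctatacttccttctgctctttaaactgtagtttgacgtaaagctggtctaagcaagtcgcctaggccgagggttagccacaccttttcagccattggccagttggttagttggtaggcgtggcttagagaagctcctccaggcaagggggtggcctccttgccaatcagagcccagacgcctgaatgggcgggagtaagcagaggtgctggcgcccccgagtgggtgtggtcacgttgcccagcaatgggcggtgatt
Ctdsp2, chr10:126978467-126978766, plus strand: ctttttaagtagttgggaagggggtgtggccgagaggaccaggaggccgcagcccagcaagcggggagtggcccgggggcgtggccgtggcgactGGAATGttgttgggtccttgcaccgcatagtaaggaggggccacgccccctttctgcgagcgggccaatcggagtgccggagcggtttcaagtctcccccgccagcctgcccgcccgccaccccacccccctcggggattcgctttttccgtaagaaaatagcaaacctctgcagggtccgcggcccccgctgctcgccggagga
Dnm3os, chr1:162217373-162217672, plus strand: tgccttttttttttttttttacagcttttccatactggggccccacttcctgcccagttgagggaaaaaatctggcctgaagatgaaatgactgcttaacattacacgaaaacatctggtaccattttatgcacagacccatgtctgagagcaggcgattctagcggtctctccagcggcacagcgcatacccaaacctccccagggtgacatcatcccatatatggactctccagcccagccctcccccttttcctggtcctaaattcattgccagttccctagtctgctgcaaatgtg

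Mir22hg and Ctdsp2 had 1 match each and Dnm3os had none. Among the other promoters read, the starts of Ddx5 in the Mir3064 region had 1, 1 and 0 matches, and Cep95 had 1. In the Mir301 region Ska2 had 1 match and Prr11 had 0. Smarcd3 had 1 match and Eif4a1 had 0, and Ctdsp1 and Myh7b had none. With the exception of Dnm3os, the promoters named here, with or without a match, lay in regions with more signal in sham. Across the 175 promoters in the RefSeq table that lay inside a miRNA region, 31 held the core on either strand (17.7%, 95% Wilson interval 12.8 to 24.0%), against 1225 of 9648 promoters inside any region (12.7%) and 4817 of 32851 promoters in the table (14.7%). The AP-1 site TGACTCA or TGAGTCA was in 5 of the 175 (2.86%), 3.74% of those inside any region and 5.20% of all. Some of these promoters are alternative starts of 1 gene and share bases. A match describes these letters and is not a measured binding site.

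Of a list of 16 miRNAs drawn up for cardiomyocytes, not all of them abundant there, 11 were listed, with 10 different nearest regions. Of the 1180 miRNA genes in RefSeq 220 were listed, for comparison with this and the later miRNA lists. That share depends on the annotation the authors used. All 10 had less signal in TAC than in sham, as had 94.6% of all regions. Their median was 6.98 in TAC and 11.8 in sham, with a median ratio of -0.59. The 95% interval of this ratio, -0.96 to -0.42, contains the -0.54 of all regions. Of the 10, 6 were at least 1.5-fold lower, where 43.0% of all regions were, and 6 were called in TAC, where 48.7% of all were. The hearts contain several cell types, and fewer cells of a type and less Yap1 bound per cell cannot be told apart in such libraries. Mir133b, Mir206, Mir30c-1, Mir30c-2 and Mir30e were not listed.

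The miR-1/miR-133 pairs are transcribed together from 2 loci. At the Mir1a-1/Mir133a-2 locus a region over Mir1a-1 had 7.91 in TAC and 12.4 in sham (ratio -0.59), and the adjoining region over Mir133a-2 had 9.68 in TAC and 14.7 in sham (-0.55). At the Mir1a-2/Mir133a-1 locus, within Mib1, a long region held the hairpins of Mir1a-2, Mir1b and Mir133a-1, with 6.20 in TAC and 11.6 in sham (-0.81). A short region beside it, the nearest to Mir133a-1, had 5.0 in TAC and 8.0 in sham, which lies on the 1.5-fold size itself. Of these 4 regions, the short one was not called in TAC and the others were called in both libraries.

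The myosin loci carried the most regions. Mir208b, in an intron of Myh7 (the slow, fetal myosin), had 7 regions, more than any other symbol, and Mir208a, in an intron of Myh6 (the adult fast myosin), had 4. The 11 regions lay side by side along both genes. The region over the Mir208a hairpin, chr14:54944780-54953416, had 7.49 in TAC and 9.76 in sham (ratio -0.34) and was called in both. The region over the Mir208b hairpin, chr14:54975225-54977166, had 6.48 in TAC and 9.26 in sham (-0.46) and was called in sham only. The region between the miRNAs, 15629 bp long over the end of Myh7 and the start of Myh6, had 9.06 in TAC and 15.9 in sham (-0.75), with a maximum of 45 in TAC and 82 in sham. The region downstream of Mir208a had 10.7 in TAC and 16.02 in sham (-0.54), and these were the strongest of the 11. Upstream of Mir208a, within Myh6, lay regions with 7.78 in TAC and 8.92 in sham (-0.18) and with 7.43 in TAC and 9.73 in sham (-0.35), both called in sham only. Toward the upstream side of Mir208b the remaining 5 regions had 3.795 to 6.38 in TAC and 8.12 to 8.72 in sham, with ratios from -0.98 to -0.31, and none was called in TAC. In all, 3 of the 11 regions were called in TAC (background 48.7%) and 11 in sham (background 96.6%), and 5 were at least 1.5-fold lower, close to the background of 43.0%. The third myosin miRNA, Mir499, had a region at the start of its host Myh7b, 10494 bp upstream of the miRNA, with 6.66 in TAC and 13.9 in sham (-0.96), called in sham only.

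**Figure D3:**
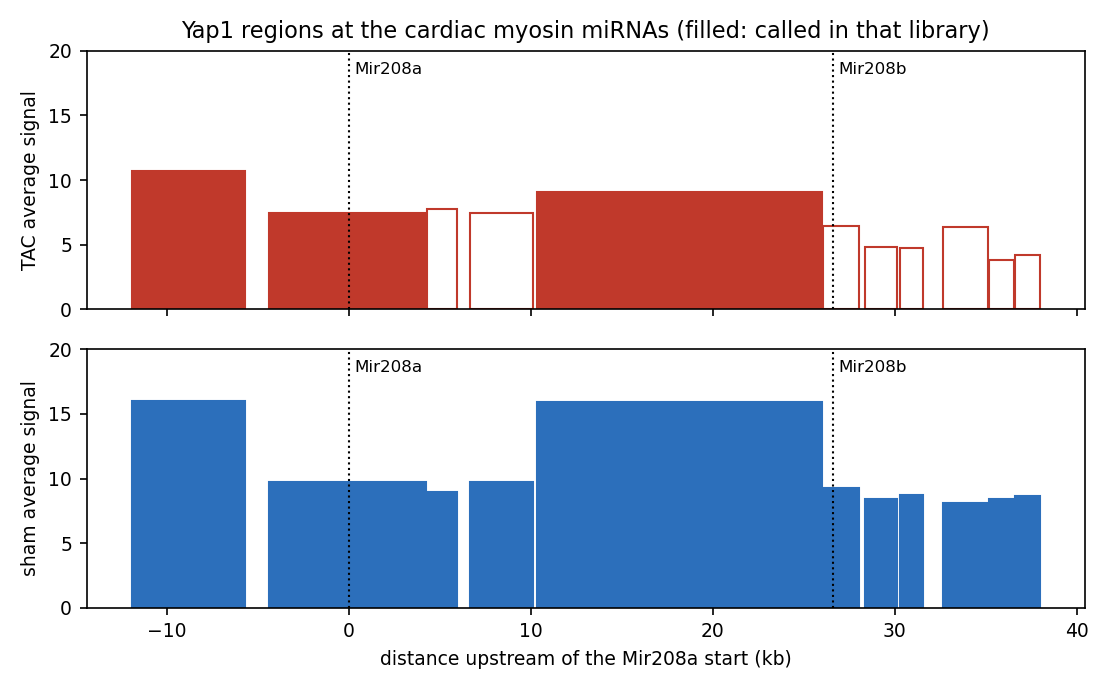
Average Yap1 signal in deposited units for the 11 regions at Mir208a and Mir208b, TAC above and sham below, against distance upstream of the Mir208a start in kb. Filled boxes were called in that library, 3 in TAC and 11 in sham, and each box spans its region.

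The other cardiomyocyte miRNAs had 1 or 2 regions each. Mir30a, of the miR-30 family that is abundant in cardiomyocytes, had a region over its hairpin that listed no other gene, with 8.71 in TAC and 11.98 in sham (ratio -0.42), called in both. Mir30b and Mir30d shared 2 regions, neither called in TAC. The one over the Mir30d hairpin had 5.29 in TAC and 11.2 in sham (-0.96). The other, named here after its values were seen, had 1.5 in TAC and 7.83 in sham (-1.82), the lowest ratio of all 276, and its TAC signal was the lowest of any region in the table. Mir486, in an intron of Ank1, and Mir3107 had 7.30 in TAC and 11.96 in sham (-0.64), with both hairpins inside the region and calls in both libraries.

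Among 41 miRNAs known from hypertrophy, fibrosis and remodelling, 24 were listed, with 16 different nearest regions. Their median signal was 9.42 in TAC and 12.9 in sham, with a median ratio of -0.39. Its 95% interval, -0.59 to -0.01, contains the -0.54 of all regions. Of the 16, 4 were at least 1.5-fold lower (background 43.0%), 11 lay above the median ratio of all regions, and 14 were called in TAC (background 48.7%). The list held regions well below the median ratio of all regions, and 3 of its 16 nearest regions had a ratio above 0.

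The miR-26 family, known for restraining cell growth, showed this spread within 1 seed family. Mir26b had 2 regions at Ctdsp1. The one over the hairpin had 13.7 in TAC and 24.5 in sham (ratio -0.79), and the next one downstream had 13.3 in TAC and 23.3 in sham (-0.76). With the Ctdsp2 region of Mir26a-2 given above (-0.85), 3 of the 4 miR-26 regions were at least 1.5-fold lower. The fourth, at Mir26a-1 in Ctdspl, had 10.02 in TAC and 9.06 in sham (0.13) and was called in TAC only. By maximum signal it had 18 in TAC and 22 in sham, so its sign turned with the measure.

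Mir199a-2 and Mir214 lie in Dnm3os, an antisense transcript of Dnm3 that is active in fibroblasts. Their region, chr1:162217025-162218358, held the Mir199a-2 hairpin, with its midpoint 123 bp from the start. It had 8.32 in TAC and 6.21 in sham, a ratio of 0.37, the highest of all 276, and was called in TAC only. The maximum was 17 in TAC and 14 in sham, the same direction. Mir199a-1 and Mir199b were not listed. The difference is below 1.5-fold on the deposited scale.

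Mir212 and Mir132, which drive hypertrophy in mouse, had 3 regions. The one over both hairpins had 8.01 in TAC and 10.7 in sham (ratio -0.38) and was called in sham only. The one upstream, which held the annotated starts of Hic1, had 10.7 in TAC and 16.02 in sham (-0.55) and was called in both. The one downstream, 5434 bp from Mir212 and beside Ovca2, Dph1 and Hic1, had 13.2 in TAC and 10.6 in sham (0.29) and was called in TAC only. By average signal, the region with more in TAC was thus not the one at the hairpins. By maximum signal the region over the hairpins had 25 in TAC and 22 in sham, so its sign turned with the measure. The downstream region had a maximum of 26 in TAC and 24 in sham.

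Mir21, a miRNA of cardiac fibroblasts that lies at the end of Vmp1, had nearly equal signal in its region, 8.03 in TAC and 7.95 in sham (ratio 0.01), with a maximum of 16 in both. Mir328 had 10.04 in TAC and 10.09 in sham (-0.01) in its nearest region and 7.48 in TAC and 10.5 in sham (-0.44) in the other. The remaining members of the list had less signal in TAC. The region over the Mir23a, Mir27a and Mir24-2 hairpins had 9.71 in TAC and 13.9 in sham (-0.47), the same ratio as the stronger region upstream. The paralogous Mir23b/Mir27b/Mir24-1 cluster had 9.12 in TAC and 10.6 in sham (-0.20) in its nearest region, and 6.13 in TAC and 9.10 in sham (-0.50) in the other. Mir29b-2 and Mir29c, which target collagen transcripts, had 8.94 in TAC and 12.9 in sham (-0.48). Mir378, within Ppargc1b, had 8.26 in TAC and 12.9 in sham (-0.59), Mir101a had 9.04 in TAC and 13.7 in sham (-0.55), and Mir365-1 had 6.93 in TAC and 8.80 in sham (-0.30).

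**Figure D4:**
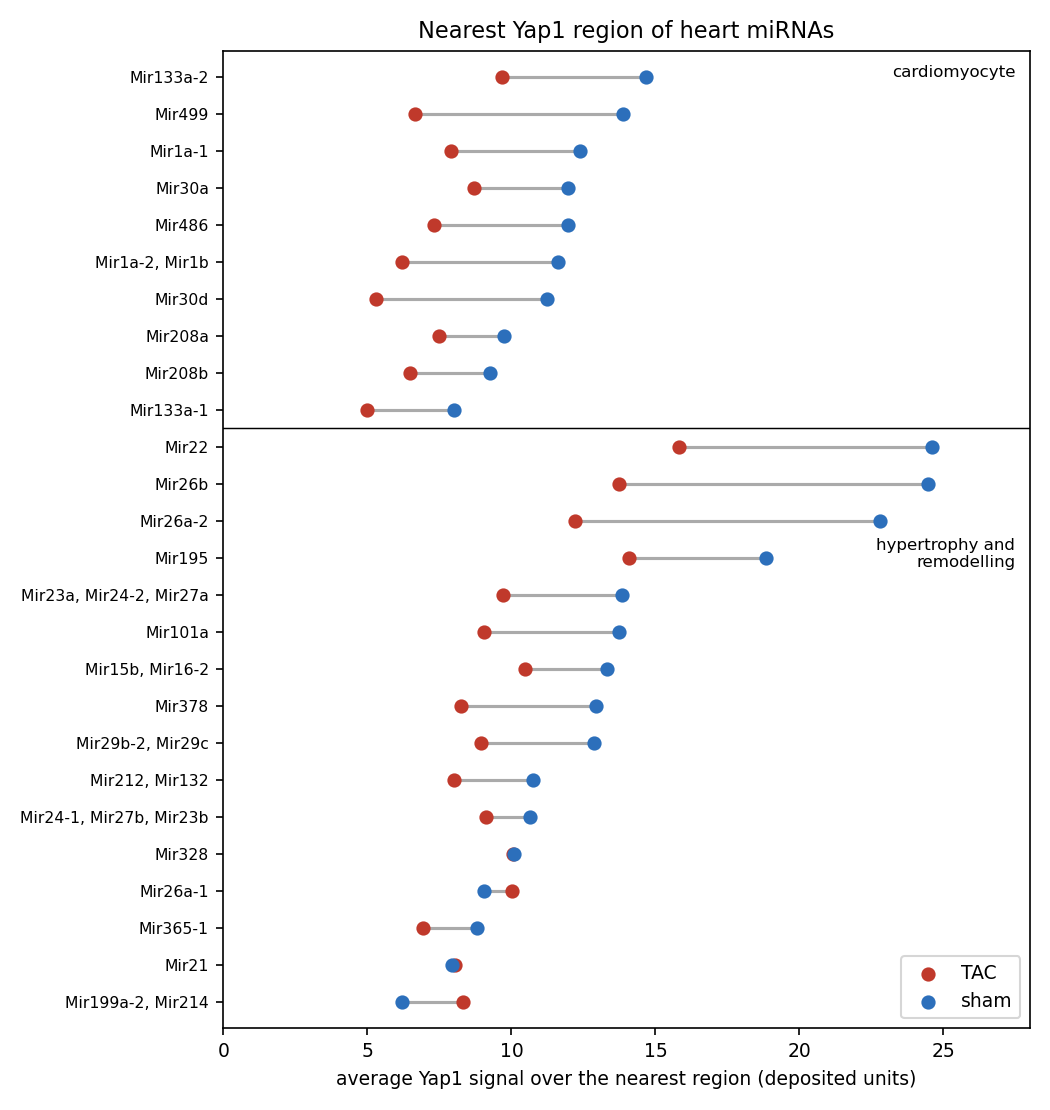
Average Yap1 signal (deposited units) over the nearest region of each listed cardiomyocyte and hypertrophy miRNA, red for TAC and blue for sham, 1 line per region. All 10 cardiomyocyte regions have less signal in TAC, with a median ratio of -0.59, and the hypertrophy list (median -0.39) holds the regions of Mir199a-2, Mir26a-1 and Mir21, where TAC is not below sham.

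Of a list of 9 miRNAs drawn up for endothelium, not all of them specific to it, 3 were listed. Mir126, in an intron of the endothelial gene Egfl7, had 2 regions, both called in TAC only. The one over the hairpin had 10.8 in TAC and 13.5 in sham (ratio -0.30), and the one upstream had 8.66 in TAC and 11.1 in sham (-0.32). The call marks therefore ran against the deposited average signal at both. Mir322 and Mir503 shared a region on chromosome X with 4.45 in TAC and 9.0 in sham (-0.87), called in sham only. Its list held 7 miRNAs, Mir450b, Mir450-1, Mir450-2, Mir542, Mir351, Mir503 and Mir322, the most of any region.

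Of 3 smooth muscle miRNAs Mir143 and Mir145 were listed, with their host transcript Mir143hg, which had 4 regions. The region over both hairpins had 7.83 in TAC and 13.0 in sham (ratio -0.67), called in both. The region at the start of Mir143hg had 8.59 in TAC and 10.4 in sham (-0.24), and a region between them had 7.09 in TAC and 10.4 in sham (-0.49). The fourth, downstream, had 10.3 in TAC and 13.1 in sham (-0.32) by average signal, but a maximum of 27 in TAC and 21 in sham, and was called in TAC only. Of 9 haematopoietic miRNAs the erythroid pair Mir144 and Mir451 was listed, with 7.67 in TAC and 11.1 in sham (-0.48). Of 5 liver miRNAs Mir192 and Mir194-2 were listed, with 6.12 in TAC and 9.22 in sham (-0.52). Of 17 neuronal and islet miRNAs 3 were listed, Mir219-1 with 9.62 in TAC and 15.1 in sham (-0.60), Mir7-1 with 7.67 in TAC and 10.7 in sham (-0.44), and Mir7-2 with 7.67 in TAC and 11.4 in sham (-0.52). Among protein-coding marker genes, the table listed 8 of 8 for cardiomyocytes, 6 of 6 for endothelium and 3 of 5 for fibroblasts. It listed 4 of 5 for smooth muscle, 2 of 5 for macrophages, 2 of 4 for hepatocytes and 1 of 4 for neurons. The share of all genes with a region was not computed, so these counts on few genes have no background and cell types were not compared.

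Selected families that share a seed were compared over all their regions. The let-7 family had 9 symbols at 12 regions, with a median ratio of -0.63, a range from -1.01 to -0.17, 7 regions at least 1.5-fold lower (background 43.0%) and 8 called in TAC (background 48.7%). The 6 nearest regions alone gave a median of -0.35, with the lowest and not the highest ratio of the family among them. Mirlet7c-1, with Mir99a, had 5.65 in TAC and 12.4 in sham (-1.01), the lowest ratio of the miRNA regions at or above the median signal. The Mirlet7a-1/Mirlet7f-1/Mirlet7d cluster had 3 regions that listed no other gene, the strongest with 12.5 in TAC and 19.4 in sham (-0.60) and a maximum of 57 in TAC and 98 in sham. The region over the Mirlet7b and Mirlet7c-2 hairpins had 8.42 in TAC and 11.4 in sham (-0.39). The region over Mirlet7i had 8.16 in TAC and 10.4 in sham (-0.31). Mirlet7g, in Wdr82, had 10.04 in TAC and 12.16 in sham (-0.25). Mirlet7e, with Mir99b and Mir125a, had 11.7 in TAC and 14.3 in sham (-0.27) upstream and 10.9 in TAC and 12.5 in sham (-0.17) downstream.

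The miR-15 family (Mir15b, Mir16-2, Mir195, Mir497 and Mir322) had 5 regions with a median ratio of -0.52 and a range from -0.87 to -0.32. Its strongest region, 3557 bp from Mir195, had 14.1 in TAC and 18.8 in sham (-0.39). Mir15b and Mir16-2, in Smc4, had 10.5 in TAC and 13.3 in sham (-0.32). The seed of miR-25, miR-92b and miR-367 had 5 regions with a median of -0.24. Mir25 lies with Mir93 and Mir106b in an intron of Mcm7, and of its 3 regions the one toward the Mcm7 start had 15.2 in TAC and 24.4 in sham (-0.65). Mir367 belongs to the Mir302b/Mir302c/Mir302a/Mir302d/Mir367 cluster in Larp7, an embryonic cluster that in mouse heart targets Hippo kinases, and its region had 11.99 in TAC and 14.4 in sham (-0.24). The family of miR-148b and miR-152 had 3 regions with a median of -0.69, the miR-99 family 3 with -0.27, and the miR-24 and miR-27 families, which lie in the same clusters, 4 with -0.47. The miR-7 family had 3 regions with a median of -0.52. Chosen after its values were seen, Mir130a, which shares its seed with miR-301a, had 10.3 in TAC and 15.6 in sham (-0.56).

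**Figure D5:**
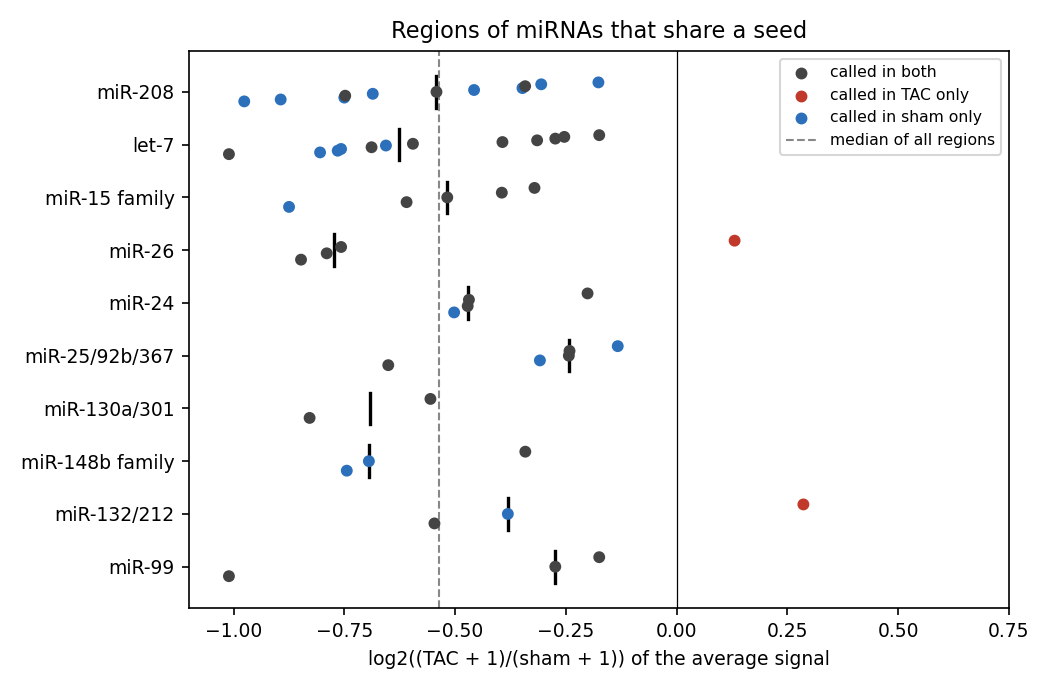
Ratio log2((TAC + 1)/(sham + 1)) of the average signal for every region of selected families of miRNAs that share a seed, coloured by where the region was called. The short line is the family's median and the dashed line the median of all regions (-0.54). Every point but Mir26a-1 (0.13) and the downstream region of Mir212/Mir132 (0.29) lies below 0.

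Over all miRNA regions at or above the median signal of the table, the 5 lowest ratios were those of Mir99a/Mirlet7c-1, Mir1904 and Mir499, given above, with Mir1199 and Mir207. Mir1199, near Palm3, had 3 regions, of which the lowest had 6.65 in TAC and 13.8 in sham (ratio -0.95). Mir207, at the start of Dnaja1, a heat shock co-chaperone, had 9.49 in TAC and 18.1 in sham (-0.87). The 5 highest were the downstream region of Mir212/Mir132 and Mir26a-1, with Mir5115 (11.0 in TAC and 9.53 in sham, 0.19), Mir1901 in Cables1 (10.3 in TAC and 9.76 in sham, 0.07) and Mir684-2 (9.33 in TAC and 8.84 in sham, 0.07). Mir1903, in Nrp1, had 4 regions, one of which had 7.70 in TAC and 6.07 in sham (0.30) and was called in TAC only, while the one over the hairpin had 12.1 in TAC and 18.5 in sham (-0.58).

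Of the 276 regions, 11 had a ratio above 0 (3.99%, background 5.38%) and 11 were called in TAC only (3.99%, background 3.40%). Both held for Mir199a-2/Mir214, the downstream region of Mir212/Mir132, Mir26a-1 and 1 region of Mir1903. The other 7 called in TAC only had more signal in sham by the deposited average. They were both Mir126 regions, the fourth Mir143hg region and, named after their values were seen, Mir1938 in Ifrd1 (8.33 in TAC and 15.0 in sham), Mir1942 in Plec (12.2 in TAC and 16.1 in sham), Mir1954 in Eng (13.1 in TAC and 19.9 in sham) and Mir707 (13.9 in TAC and 19.0 in sham). Among the miRNA regions, a call in TAC only and a higher average signal in TAC thus mostly fell on different regions. The 11 called in TAC only had a median ratio of -0.32. The 738 other regions of the table called in TAC only had a median ratio of 0.24. By maximum signal 20 regions had a ratio above 0, and 7 had one by both measures.

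Regions with and without a counted CpG island differed in signal. The 158 with one had a median of 9.86 in TAC and 13.5 in sham (ratio -0.48), and 110 of them were called in TAC (69.6%). The 118 without had 6.88 in TAC and 10.03 in sham (-0.54), and 51 were called in TAC (43.2%). All other regions showed the same split, with 64.9% and 39.5% called in TAC. The 18 regions that listed miRNAs alone were weak, with a median of 6.29 in TAC and 9.91 in sham (-0.58). The interval of this ratio, -0.80 to -0.39, contains the -0.54 of all regions. Of the 18, 9 were at least 1.5-fold lower (background 43.0%) and 7 were called in TAC (background 48.7%). Across the 276 regions the signal of TAC and sham ranked alike (Spearman's rho 0.82, against 0.67 over all regions), a description of regions from 2 libraries that are not independent replicates.

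The genes that make and use miRNAs were looked at as well. Of 24 such genes 18 had a region, 17 different ones, with a median signal of 10.3 in TAC and 14.0 in sham, a median ratio of -0.45, 5 at least 1.5-fold lower (background 43.0%) and 10 called in TAC (background 48.7%). Drosha, the nuclease that cuts the hairpin from the primary transcript, had 11.3 in TAC and 13.0 in sham (-0.18). Its partner Dgcr8 had 6.05 in TAC and 8.55 in sham (-0.44) in a region that also listed Mir1306. Dicer1, which cuts the hairpin in the cytoplasm, had 10.7 in TAC and 14.2 in sham (-0.39), and the exporter Xpo5 had 11.6 in TAC and 17.1 in sham (-0.52). Ago2, the slicing Argonaute, had 7.62 in TAC and 14.0 in sham (-0.80), while the region shared by Ago1 and Ago3 had 11.3 in TAC and 15.1 in sham (-0.40). Of the Tnrc6 genes, whose products bind Argonaute, Tnrc6c had 15.2 in TAC and 28.2 in sham (-0.85), and Tnrc6a had 12.5 in TAC and 21.1 in sham (-0.70), and Tnrc6b had 9.86 in TAC and 16.6 in sham (-0.69). Ddx5 shares its region with Mir3064. Apart from the extremes, these genes were chosen after their values were seen. Adar, Ago4, Ddx17, Dis3l2, Lin28a and Lin28b were not listed.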

How the data were processed

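Reads were aligned with BWA and regions called with MACS 1.4.2 on mm10, per the submitters' processing notes. The authors' deposited table holds, per the file headers, the average and the maximum signal of each merged region in each library, a call mark, and the listed genes with distance and position class. The sources used here do not give the scaling between libraries, the threshold or the read depth, so no counting error can be given, and a number after the operation in the column names is not explained.

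MiRNA entries were read from the gene lists with the distance at the same place. The ratio was log2((TAC + 1)/(sham + 1)) of the average signal, with a pseudocount of 1 and a size of 1.5-fold, also after the median ratio of the 22020 regions was subtracted. With 1 library per operation there is no test. Intervals are 95% order-statistic intervals for medians and Wilson intervals for shares. Of 231 symbols, 213 matched RefSeq (GRCm38.p6) by symbol, 10 by synonym and 8 not. Distances recomputed from RefSeq hairpins matched the table within 1 bp in 282 of 283 pairs. A gene in a list took its nearest region.

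Named miRNAs were the 5 highest and 5 lowest ratios at or above the median signal of all regions (8.98). Also named were the strongest regions of each library, the 10 nearest to their start, heart list members and list extremes. The symbols with most regions, the regions with most miRNAs and some of the seed families over 3 or more regions were named too. Members and lists were chosen with earlier results of these data known. Computations used Python 3.11.15, pandas 2.3.3, numpy 2.4.6 and scipy 1.17.1, and were tested on simulated data. Alternatives covered the pseudocount, maximum signal, weak regions, call marks, how regions and symbols were counted, distance, size, centring and sex chromosomes.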

Additional observations from a re-analysis of the deposited data

How the results depend on the processing

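No paired analysis was possible because there was 1 library per operation. For the same reason no library could be left out. The count of miRNA regions at least 1.5-fold higher in TAC was 0 under every alternative tried. The median ratio was -0.37 with a pseudocount of 5 and -0.58 in the 18 regions that list miRNAs alone, and otherwise moved little from -0.51. The 106 regions at least 1.5-fold lower became 27 with a pseudocount of 5, 61 of the 184 at or above the median signal, 52 of the 150 called in both, 60 of the 148 within 5000 bp of the miRNA start, 9 of the 18 with miRNAs alone, and 5 at a 2-fold size. Set against the median ratio of the whole table, the 3 lower ones became 19 by maximum signal, 1 with a pseudocount of 5, 0 at or above the median signal, 0 when called in both, 1 with miRNAs alone and 1 at 2-fold. The 8 higher ones became 20 by maximum signal, 2 with a pseudocount of 5, 3 at or above the median signal, 2 when called in both (each with the centre taken anew over the regions kept; 5 and 4 with the centre unchanged), 3 within 5000 bp, 1 with miRNAs alone and 0 at 2-fold. Without the regions not called in sham, an alternative added after the data were seen, they became 4, again with a new centre. The 161 called in TAC became 88 of the 148 within 5000 bp and 7 of the 18 with miRNAs alone. Settings that keep fewer regions can only lower a count when the centre is unchanged; for the other moves the cause was not tested. Of 62 regions named by the rules, 13 crossed the 1.5-fold size by maximum signal and 17 with a pseudocount of 5, and 6 changed sign by maximum signal.

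Read depth is unknown, so differences between weak regions carry an unknown counting error. Values shared by neighbouring genes cannot be assigned to one of them. Differences between mice were not measured, and the listing follows the annotation the authors used.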
